A study of Mus musculus with 17 samples.

Results

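Tcf1 binding sites in acetylated chromatin away from promoter-type marks are described here, over 2826 peaks of the 7807 Tcf1 peaks in the series (36.2%, 95% interval 35.1 to 37.3). Members were chosen by the measured islands of 3 marks: a peak was taken as enhancer-like where it shared at least 1 bp with an H3K27ac island of at least 1 thymocyte group and with no H3K4me3 or H3K27me3 island of any of the 3 groups. Of all peaks, 6636 lay in H3K27ac of some group and 3067 of these had no H3K4me3. A further 241 were left out because they overlapped H3K27me3. The name rests on these marks only: H3K4me1, the usual mark of enhancers, was not analysed here, and no activity was measured.

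The series is a chromatin immunoprecipitation and sequencing (ChIP-seq) study of mouse T cells with 17 samples. Histone marks were mapped in mature thymocytes of 3 groups. DKO CD8 cells lacked both Tcf1 and Lef1 (Tcf1-/-Lef1-/-), deleted by CD4-Cre, a recombinase driven by Cd4 regulatory sequence that acts from the CD4 CD8 double-positive stage on, so earlier thymocytes still had both factors. WT CD4 and WT CD8 cells were wild type. CD8 thymocytes were sorted for high TCRβ without CD69 or CD24. WT CD4 samples carry the same phenotype label, CD8+ included, against a title and source that give CD4 cells. They were grouped by title. Tcf1 was mapped in splenic CD8 T cells of wild-type mice, with splenic CD8 T cells of mice whose Tcf1 had been deleted by CD4-Cre as the control. Binding and marks were thus measured in cells from different organs. The labels give no age and do not say how many mice were pooled.

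Tcf1, made by Tcf7, and Lef1 are related HMG-box factors that bind DNA at the same kind of motif and can recruit β-catenin or Groucho-type corepressors. In thymocytes they act together at commitment to the T lineage and again where CD4 and CD8 fates separate. Acetylation of lysine 27 of histone H3 (H3K27ac) marks active promoters and enhancers. Lysine 9 acetylation (H3K9ac) is found at active promoters and many enhancers, H3K4me3 is typical of promoters, and H3K27me3 is set by Polycomb complexes at silent genes. Sites with H3K27ac but without H3K4me3 are the usual candidates for distal enhancers.

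With 1 library per mark in each group, differences between groups have no replicate check and carry no p-value. Islands, the enriched intervals of each library, held from 248234 reads for H3K9ac in WT CD8 to 4025243 for H3K27me3 in WT CD4. For H3K27ac they held 1959297 reads in DKO CD8 at 33.1 reads per kb of island, 2505720 in WT CD4 at 39.1 per kb, and 2056894 in WT CD8 at 24.6 per kb. The WT CD8 list was thus the most diffuse, spread over 56985 islands, against 29636 in DKO CD8 and 24476 in WT CD4. Its part in the differences from WT CD8 below was not tested. Where a library has no island its reads are not known, and intervals are exact Clopper-Pearson intervals that cover counting error only. Regions are given in the mm9 build, and genes and sequences at them were not analysed here.

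Enhancer-like peaks scored higher than the other Tcf1 peaks, although the rule did not use the score. The deposited score per peak, which was at least 50 throughout, had a median of 85.1 at enhancer-like peaks (quartiles 62.1 and 131). The median was 72.8 at the other 4981 peaks (59.0 and 102). The median was 75.6 at 2131 peaks with H3K4me3 in all 3 groups, 73.5 at 1489 with H3K4me3 in 1 or 2 groups, 73.3 at 431 with H3K27me3 and no H3K4me3, and 64.4 at 930 peaks with none of these marks. A score of at least 100 was held by 38.8% of enhancer-like peaks and 26% of the others. Peaks with H3K27me3 and no H3K4me3 came closest, at 33.6%. Among the 100 highest scores of the list 62 were enhancer-like (2.19% of that class) and 13 had H3K27me3 without H3K4me3 (3.02% of that class), so a place among them was not particular to the enhancer-like peaks. Peak width did not follow this order: the median was 399 bp at enhancer-like peaks and 508 bp at peaks with H3K4me3 in all 3 groups. Within the enhancer-like peaks, score and width rose together (Spearman's rho 0.62 over 2826 peaks of 1 library, given as a description).

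The 5 enhancer-like peaks with the highest scores show how differently high-scoring peaks were acetylated in the thymus. The first, on chromosome 5 from 29532304 to 29532665 with a score of 477.81, had an H3K27ac island in WT CD4 alone, of 31 reads over 1.8 kb. Next was chromosome 4, 154424108 to 154424658 (score 476.78), again with H3K27ac in WT CD4 alone, of 54 reads over 1.8 kb, and with H3K9ac of 23 reads in WT CD4. The third, chromosome 4, 57846666 to 57847430 (score 466.93), lay in islands of every group. Its H3K27ac islands held 70 reads over 3.0 kb in DKO CD8, 78 over 4.4 kb in WT CD4 and 13 over 0.4 kb in WT CD8. At the fourth, chromosome 16, 94406974 to 94407531 (score 460.16), the values were 45 reads over 2.4 kb in DKO CD8, 86 over 3.2 kb in WT CD4 and 23 over 1.4 kb in WT CD8. At the fifth, chromosome 15, 9504474 to 9505159 (score 456.25), they were 27 over 1.6 kb in DKO CD8, 80 over 1.8 kb in WT CD4 and 33 over 1.2 kb in WT CD8. Every one of these islands held fewer reads than the median H3K27ac island with an enhancer-like peak, which had 80 reads in DKO CD8, 119 in WT CD4 and 39 in WT CD8. All 5 peaks lay between 6170 and 26669 bp from the nearest H3K4me3 island.

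H3K9ac, which the rule did not use, was far less common at enhancer-like peaks than at Tcf1 peaks with H3K4me3. An H3K9ac island covered 6.76% of enhancer-like peaks in DKO CD8 (5.86 to 7.75), 22.3% in WT CD4 (20.8 to 23.9) and 5.06% in WT CD8 (4.28 to 5.93). At peaks with H3K4me3 in all 3 groups the shares were 71.6% in DKO CD8, 96.8% in WT CD4 and 60.0% in WT CD8. Peaks with H3K4me3 in 1 or 2 groups lay between, at 33.2% in DKO CD8, 74.4% in WT CD4 and 24% in WT CD8. Peaks with H3K27me3 and no H3K4me3 came closest to the enhancer-like peaks, at 3.02% in DKO CD8, 13.5% in WT CD4 and 2.55% in WT CD8. Peaks with none of the 3 marks of the rule had almost none, at 0.323% in DKO CD8, 1.4% in WT CD4 and 0.215% in WT CD8. In each of these classes the share was highest in WT CD4 and lowest in WT CD8. The whole lists held 6516 H3K9ac islands in DKO CD8, 32651 in WT CD4 and 9860 in WT CD8, and the part of this difference in the shares was not tested.

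**Figure D1:**
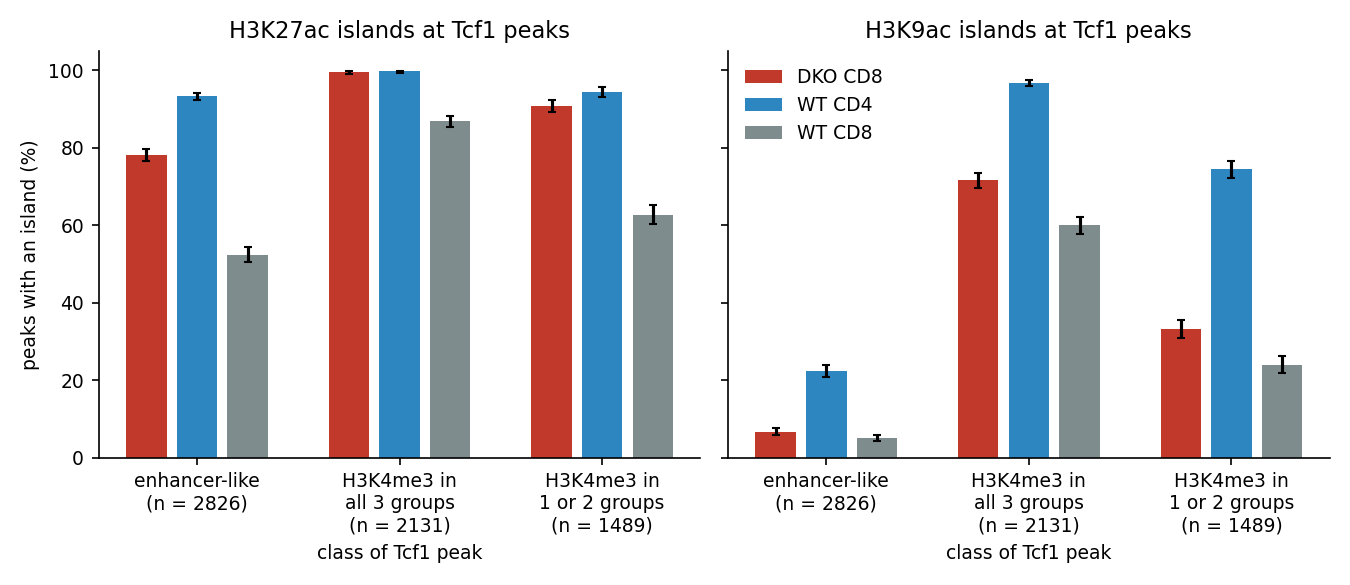
Share of Tcf1 peaks (vertical axis, %) with an H3K27ac island (left) or an H3K9ac island (right) in each group, for enhancer-like peaks and the classes with H3K4me3; bars are shares and lines exact 95% intervals. Enhancer-like peaks have H3K27ac shares of 78.0% in DKO CD8, 93.3% in WT CD4 and 52.4% in WT CD8, which the rule helped to set, and H3K9ac shares of at most 22.3%.

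At 2095 of the enhancer-like peaks (74.1%) no group had H3K9ac. WT CD4 was the only group with it at 446 peaks, DKO CD8 at 58 and WT CD8 at 39. DKO CD8 shared it with WT CD4 at 84 peaks and with WT CD8 at 4, both wild types shared it at 55, and all 3 groups at 45. H3K9ac was more frequent at peaks that had H3K27ac in the same group. The share with H3K9ac in DKO CD8 was 8.53% with H3K27ac and 0.483% without. For WT CD4 these shares were 23.6% with and 3.70% without, and for WT CD8 7.96% with and 1.86% without. The highest-scoring peak with H3K9ac in every group was chromosome 5, 124484386 to 124485097 (score 306.66), in an H3K27ac region of 12.6 kb that holds 3 enhancer-like peaks and also has H3K4me3. Its H3K9ac islands held 51 reads in DKO CD8, 302 in WT CD4 and 37 in WT CD8.

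H3K27ac at enhancer-like peaks was shared by all 3 groups at 1308 peaks (46.3%, 44.4 to 48.1). The next combination was DKO CD8 with WT CD4, without WT CD8, at 748 peaks (26.5%), followed by WT CD4 alone at 469 (16.6%). DKO CD8 alone had 127, both wild types without DKO CD8 had 112, WT CD8 alone had 40, and both CD8 groups without WT CD4 had 22. In all, DKO CD8 had an island at 2205 peaks (78.0%), WT CD4 at 2637 (93.3%) and WT CD8 at 1482 (52.4%). Since the rule asked for H3K27ac in at least 1 group, these counts describe the peaks and carry no test. Counted by merged H3K27ac region, 57.1% of regions with an enhancer-like peak had islands of all 3 groups, 20.6% of DKO CD8 and WT CD4, and 11.9% of WT CD4 alone. Over all 79486 merged regions these shares were 12.4%, 8.03% and 8.19%, and 54.6% had islands of WT CD8 alone. Regions of other Tcf1 peaks with H3K4me3 had 79.5% with all 3 groups, 17.1% with DKO CD8 and WT CD4, and 2.01% with WT CD4 alone. Peaks acetylated in every group had a median score of 91.9, those in DKO CD8 and WT CD4 76.4, and those in WT CD4 alone 78.5. The median was 90.9 for both wild types and 102 for both CD8 groups. For WT CD8 alone it was 80.5 and for DKO CD8 alone 72.4. Higher scores were thus not particular to peaks acetylated in every group.

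**Figure D2:**
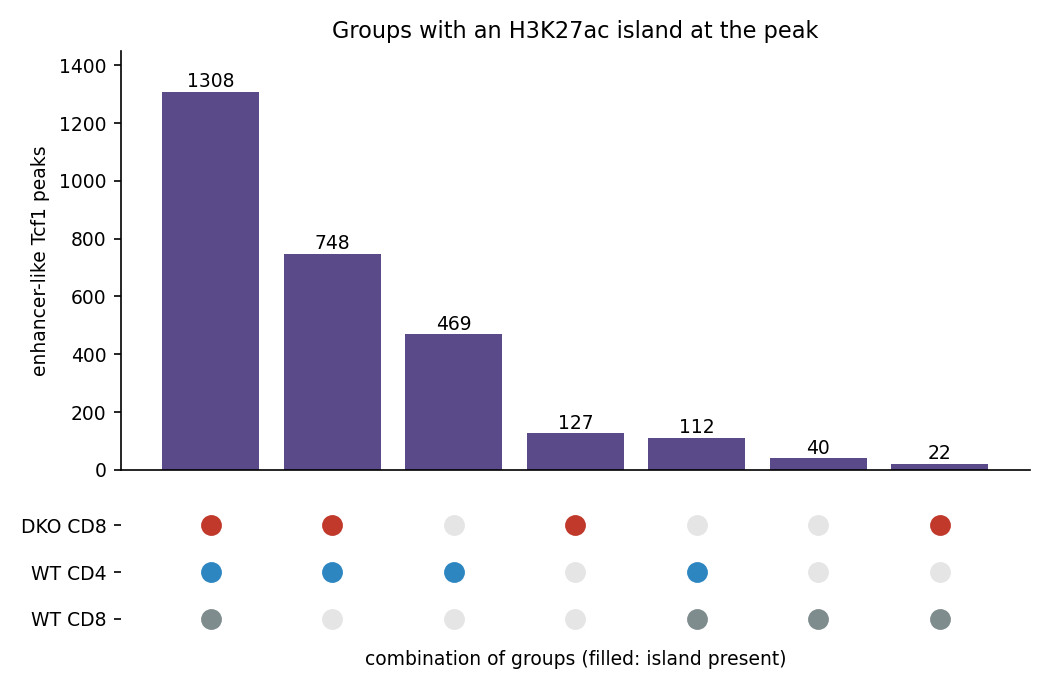
Number of enhancer-like Tcf1 peaks (vertical axis) by the combination of groups with an H3K27ac island at the peak; filled circles mark the groups with an island. Combinations with WT CD4 make up the 3 tallest bars, of 1308, 748 and 469 peaks.

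The highest-scoring peak of each remaining combination gives an example of the islands behind these counts. With H3K27ac in DKO CD8 and WT CD4, chromosome 7, 52988753 to 52989284 (score 441.48), had 72 reads over 2.2 kb in DKO CD8 and 233 over 5.2 kb in WT CD4. With H3K27ac in DKO CD8 alone, chromosome 9, 41966897 to 41967359 (score 404.82), had 27 reads over 1.8 kb. With both wild types, chromosome 2, 17593163 to 17593707 (score 452.70), had 78 reads over 3.4 kb in WT CD4 and 17 over 1.2 kb in WT CD8. A site with no island in another group can still have had reads there. With WT CD8 alone, chromosome 5, 108269564 to 108270153 (score 366.52), had 21 reads over 1.4 kb. In both CD8 groups without WT CD4, chromosome 10, 19225747 to 19226181 (score 213.58), had 39 reads over 2.0 kb in DKO CD8 and 48 over 2.4 kb in WT CD8.

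Tcf1 peaks sat towards the middle of their H3K27ac islands. The distance from peak centre to island centre was taken as a share of the distance from centre to edge. Its median was 0.37 in DKO CD8, 0.34 in WT CD4 and 0.43 in WT CD8. Even placing of peak centres inside the island gives 0.5. For H3K9ac islands the medians were 0.57 in DKO CD8, 0.54 in WT CD4 and 0.55 in WT CD8. Peaks were counted from 1 bp of overlap, so a centre can lie outside its island and even placing then gives more than 0.5. Whether peaks lay off the middle of H3K9ac islands was therefore not tested. Most enhancer-like peaks, 2664 (94.3%), lay wholly inside H3K27ac. Islands with an enhancer-like peak were wider than all islands of their library, with median widths of 3000 against 1600 bp in DKO CD8, 3400 against 2200 bp in WT CD4, and 1800 against 1200 bp in WT CD8.

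Merging the H3K27ac islands of the 3 groups gave 79486 regions, of which 2464 held the enhancer-like peaks. Most of these, 1788 regions with 2020 peaks, had neither H3K4me3 nor H3K27me3 anywhere in the region and are called stand-alone regions here. Another 545 regions with 655 peaks reached into H3K4me3 elsewhere, so that these peaks share an acetylated domain with a promoter-type mark. The last 131, with 151 peaks, touched H3K27me3 but not H3K4me3. Regions with H3K4me3 were wider, with a median of 6200 bp against 3400 bp for stand-alone regions. They were also denser in reads, at 38.2 against 25.6 reads per kb in DKO CD8, 47.7 against 31.2 in WT CD4, and 25.1 against 21.9 in WT CD8.

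Most enhancer-like peaks were alone in their region. A single one was found in 2152 regions, and 312 regions held 2 or more, with 674 peaks in all. Of these 42 regions held 3 or more, over a median of 13.9 kb, against 3.6 kb for regions with 1. Another enhancer-like peak lay within 5 kb of 718 peaks (25.4%) and within 50 kb of 1599 (56.6%). Neighbouring peaks share an island and its reads, so they are not separate measurements of acetylation.

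The region with the most enhancer-like peaks, 5, was chromosome 5 from 114272001 to 114294800. It spans 22.8 kb and had 1474 H3K27ac reads in DKO CD8, 1549 in WT CD4 and 532 in WT CD8. Relative to the typical region shared by DKO CD8 and WT CD4, which had 0.761 times as many reads in DKO CD8, it was higher in DKO CD8 by 0.32 on the log2 scale. Near its centre it carries H3K4me3 and 1 other Tcf1 peak, and the enhancer-like peaks lie on both sides, with scores from 56.96 to 253.11. H3K9ac islands, with 265 reads in DKO CD8, 252 in WT CD4 and 128 in WT CD8, lay around this central H3K4me3. They did not reach the pair of peaks at the far end. Past that pair, WT CD4 also had an H3K4me3 island of 19 reads, which began 11.201 kb from the region's centre. Among regions with 4 enhancer-like peaks, the widest was chromosome 6, 99320201 to 99362000, with no H3K4me3 over 41.8 kb. It had 1075 H3K27ac reads in DKO CD8 over 29.6 kb of island, 2503 in WT CD4 over 40.8 kb and 673 in WT CD8 over 25.4 kb. Its H3K9ac islands held 95 reads in WT CD4 and 37 in WT CD8, and DKO CD8 had none. The next, chromosome 9, 32300201 to 32329600, also without H3K4me3, had 1129 H3K27ac reads in DKO CD8, 1480 in WT CD4 and 428 in WT CD8. The widest region with an enhancer-like peak, H3K27me3 and no H3K4me3 had the same width, 29400 bp. H3K27me3 elsewhere in the chromosome 9 region is thus possible. Of the 7 regions with 4 or more enhancer-like peaks, 3 had no H3K4me3.

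**Figure D3:**
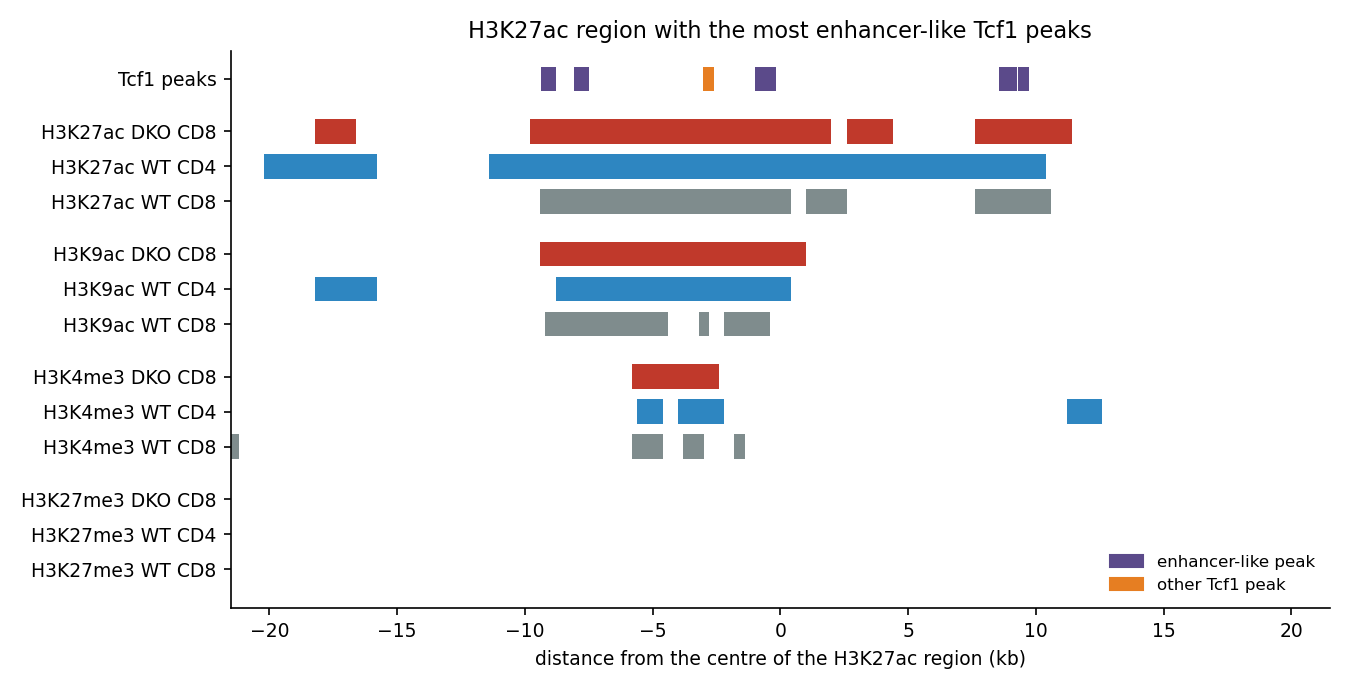
Islands of the 4 marks in the 3 groups, and Tcf1 peaks, around the H3K27ac region with the most enhancer-like peaks; the horizontal axis is distance from the region's centre in kb and each bar spans 1 island or peak. The 5 enhancer-like peaks lie on both sides of an H3K4me3 segment, which holds the other Tcf1 peak, inside a WT CD4 H3K27ac island of 21.8 kb. A WT CD4 H3K4me3 island of 19 reads lies past the last pair of peaks.

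Stand-alone regions were then set beside the 36938 H3K27ac regions that had no H3K4me3, no H3K27me3 and no Tcf1 peak. Of stand-alone regions with an enhancer-like peak 50.2% were called in all 3 groups, and 22.8% were shared by DKO CD8 and WT CD4. Called in a single group were 5.26% (DKO CD8), 14.5% (WT CD4) and 1.79% (WT CD8). Regions without a Tcf1 peak were mostly called in a single group, at 20.4% (DKO CD8), 10.7% (WT CD4) and 55.4% (WT CD8), and 4.17% were called in all 3. Regions without a Tcf1 peak were narrower, with a median width of 1200 bp. Stand-alone regions with a peak had median reads of 68 in DKO CD8, 98.5 in WT CD4 and 37 in WT CD8, against 24, 40 and 17 reads in these groups at regions without one. Comparisons between both kinds of region were therefore also made at like reads and like read density.

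Of stand-alone regions with a peak that were called in both wild types, 91.5% (89.6 to 93.2) were also called in DKO CD8, against 75.8% (73.9 to 77.7) of regions without a Tcf1 peak. At regions of other Tcf1 peaks with H3K4me3 the share was 99.6%. In 5 strata of WT CD4 reads the shares were furthest apart in weak regions. With up to 48 WT CD4 reads, 45.9% (40.6 to 51.4) of regions with an enhancer-like peak had a DKO CD8 island, against 31.1% (29.8 to 32.4) without a Tcf1 peak. With over 79 and up to 128 reads the shares were 85.2% (81.0 to 88.9) and 81.4% (78.7 to 83.8), and over 128 and up to 217.6 reads they were 93.5% and 92.1%. Over 217.6 reads they were 99.4% (97.8 to 99.9) and 96.0% (92.2 to 98.2). The rule also admitted peaks through a DKO CD8 island alone, as at 127 peaks, so these shares are partly set by it.

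Read the other way, weak regions differed more. Among regions called in DKO CD8 with up to 33 reads, 78.6% (73.4 to 83.1) of those with an enhancer-like peak were also called in WT CD4, against 18.1% (17.3 to 19.0) of those without a Tcf1 peak. With over 33 and up to 55 reads the shares were 89.3% and 58.8%, and with over 85 and up to 153.6 reads 99.3% and 96.4%. These shares are partly set by the rule, which admitted peaks through a WT CD4 island alone too, as at 469 peaks. Since regions were merged over all groups, a WT CD4 island could place a DKO CD8 region among those with a peak. The shares therefore describe the regions and carry no test. In 5 strata of reads per kb of island the shares stayed apart in the densest regions too. Over 37.3 DKO CD8 reads per kb, 97.9% (95.4 to 99.2) of regions with an enhancer-like peak were called in WT CD4, against 58.1% (54.3 to 61.8) of regions without a Tcf1 peak. Over 47.1 WT CD4 reads per kb, 95.7% (92.9 to 97.6) were called in DKO CD8, against 88.6% (85.2 to 91.5). Width was not matched in these strata.

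**Figure D4:**
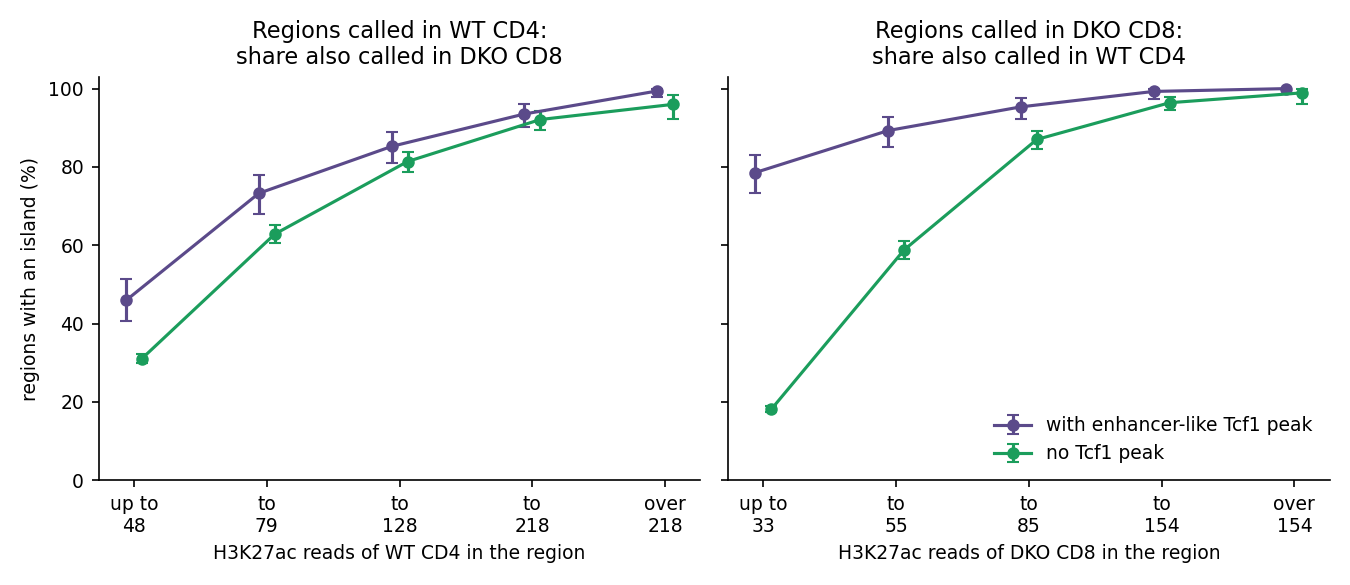
Share of H3K27ac regions without H3K4me3 or H3K27me3 that also had an island in DKO CD8 (left, among regions of WT CD4) or in WT CD4 (right, among regions of DKO CD8), by reads in the region; points are shares and bars exact 95% intervals. In the weakest stratum on the right, 78.6% of regions with an enhancer-like Tcf1 peak and 18.1% of regions without a Tcf1 peak had a WT CD4 island, and in the strongest stratum 100% and 98.9% had one. The rule used islands of all groups, so these shares are partly set by it.

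H3K9ac in WT CD4 was called at 27.9% of stand-alone regions with an enhancer-like peak and 13.4% of regions without a Tcf1 peak. At like H3K27ac reads the shares were closer: 20.5% (16.3 to 25.2) and 19.7% (17.2 to 22.4) over 79 and up to 128 reads, and 33.3% (28.2 to 38.8) and 34.8% (30.6 to 39.2) over 128 and up to 217.6 reads. Up to 48 reads they were 7.56% and 8.40%, and over 48 and up to 79 reads 11.6% and 14.0%. Over 217.6 reads they were 67.0% (61.6 to 72.0) and 57.3% (50.1 to 64.3), at median reads of 349.5 and 292. Reads were thus not alike in that stratum. In DKO CD8 regions of over 153.6 reads the shares were 18.4% with an enhancer-like peak and 18.4% without a Tcf1 peak. Over 55 and up to 85 DKO CD8 reads they were 0.358% and 2.40%, and over 85 and up to 153.6 reads 5.05% and 4.17%. WT CD8 regions of over 79 reads had 29.0% (22.8 to 35.8) with an enhancer-like peak and 10.5% (6.62 to 15.6) without. Over 46 and up to 79 WT CD8 reads the shares were 5.88% and 1.66%. They were 2.02% and 1.52% over 31 and up to 46 reads, and 6.03% and 1.79% over 21 and up to 31.

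Reads in H3K27ac islands were compared where both libraries of a pair had an island, as the log2 ratio of reads less the median ratio of all such regions. For each pair the regions were merged from the islands of those libraries alone, so that their limits can differ from those above. Regions at least 2-fold above or below that median were counted. Between DKO CD8 and WT CD4, the pair with the most shared regions, 1917 regions with 2256 enhancer-like peaks had a median of -0.23 (quartiles -0.72 and 0.24), where all 16289 shared regions have a median of 0. Of these, 309 (16.1%) were at least 2-fold lower in DKO CD8 and 98 (5.11%) at least 2-fold higher, beside 7.25% and 4.3% of all shared regions. The share of lower regions was thus above the background and that of higher regions near it. Width was not matched here: 823 of the 1917 regions were over 5 kb, against 2340 of the 16289. Over 5 kb 17.6% of enhancer-like regions were lower, against 14.6% of all shared regions. Up to 2 kb these shares were 9.60% and 2.87%. Where islands covered at least 50% of the region in both libraries, the median was -0.12, against 0.05 for all shared regions, and 8.22% were lower, against 3.07%. Regions of other Tcf1 peaks with H3K4me3 had a median of 0.09, with 1.79% lower and 1.24% higher. Stand-alone regions with a peak had a median of -0.29 and 18.5% lower, and regions with no Tcf1 peak, H3K4me3 or H3K27me3 had -0.11 and 11.5%. Within regions over 5 kb the last 2 medians were -0.33 and -0.26, and within regions up to 2 kb -0.15 and -0.03.

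Named regions show the size of these differences, each with islands over at least 50% of the region in both libraries and at least 100 reads in the higher one. Chromosome 10, 67701201 to 67704400, with 2 enhancer-like peaks of scores up to 228.41, had 33 reads in DKO CD8 and 224 in WT CD4 (log2 ratio -2.37, -2.94 to -1.84). Chromosome 1, 185810401 to 185812000 (score 172.83), had 22 in DKO CD8 and 144 in WT CD4 (-2.32, -3.04 to -1.66). Both were far below the typical region. In the other direction, chromosome 13, 73833001 to 73852600 (score 54.46), had 1204 reads in DKO CD8 and 360 in WT CD4 (2.14, 1.96 to 2.31). Chromosome 19, 41400801 to 41409200 (score 243.92), had 339 in DKO CD8 and 137 in WT CD4 (1.70, 1.41 to 2.0), and elsewhere in the region had H3K27me3 islands in WT CD4 and WT CD8 and none in DKO CD8.

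Between DKO CD8 and WT CD8, 1364 regions with 1607 enhancer-like peaks had a median of -0.12 (quartiles -0.65 and 0.37). At least 2-fold lower in DKO CD8 were 213 (15.6%) and higher 98 (7.18%), near the 15.2% and 8.08% of all 11068 shared regions. Taken over all widths, these counts do not set the peaks apart. At like width the shares differed. Up to 2 kb 29.0% of enhancer-like regions were lower, against 17.8% of all shared regions. Over 5 kb 5.73% were lower, against 12.2%, and 10.1% were higher, against 15.1%. Stand-alone regions had a median of -0.23, against -0.38 for regions with no Tcf1 peak, H3K4me3 or H3K27me3 and 0.30 for other Tcf1 peaks with H3K4me3. These values moved with region width: regions with an enhancer-like peak had a median of -0.51 up to 2 kb and 0.08 over 5 kb, and regions with no Tcf1 peak or other mark -0.75 and 0.45. Where islands covered at least 50% of the region in both libraries, the median of enhancer-like regions was -0.36, against -0.17 for all. There 21.2% were lower, against 17.6% of all, and 0.694% higher, against 2.91%. Divided by total island reads instead, the median of enhancer-like regions was 1.39, with 2.72 times as many reads in DKO CD8 at the typical shared region, and 957 (70.2%) were higher and 15 lower, beside 72.2% and 1.78% of all shared regions. The direction against WT CD8 therefore depends on the scale.

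The regions lowest in DKO CD8 against WT CD8 were far below this spread. Chromosome 15, 36323601 to 36328000, holding 2 enhancer-like peaks with scores up to 241.40 and no other mark, had 32 reads in DKO CD8 and 126 in WT CD8 (log2 ratio -3.42, -4.03 to -2.85), and its WT CD4 islands held 160. Chromosome 11, 99031201 to 99033800 (score 181.41), had 40 in DKO CD8 and 129 in WT CD8 (-3.13, -3.68 to -2.61). H3K9ac there was called in WT CD4 with 66 reads and in WT CD8 with 25, and not in DKO CD8. Among the 516 regions within these limits, the highest in DKO CD8 was chromosome 17, 51962601 to 51968400 (score 62.09). It had 342 reads in DKO CD8 and 40 in WT CD8 (1.65, 1.18 to 2.16). This region had H3K9ac of 168 reads in DKO CD8, 16 in WT CD4 and none called in WT CD8, and an H3K4me3 island of 14 reads in DKO CD8 alone, outside the peak. Next to it in rank was chromosome 7, 106233601 to 106237200 (score 202.95), with 128 in DKO CD8 and 21 in WT CD8 (1.17, 0.49 to 1.91).

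Between WT CD4 and WT CD8, 1487 regions with 1804 enhancer-like peaks had a median of 0.09 (quartiles -0.38 and 0.55). Higher in WT CD4 by at least 2-fold were 145 (9.75%) and lower 104 (6.99%), beside 6.3% and 13.5% of all 11153 shared regions. On this scale and over all widths, higher regions were thus more frequent than the background and lower ones less. Where islands covered at least 50% of the region in both libraries, the median was -0.23 for enhancer-like regions and -0.20 for all shared regions, with 0.399% against 0.739% higher and 12.3% against 18.3% lower. The greater frequency of higher regions was thus not found there. Divided by total island reads, the median was 1.68, with 84.1% of enhancer-like regions higher, against 77.6% of all, and 0.134% lower, against 1.78%. Stand-alone regions had a median of 0.04 and regions with no Tcf1 peak, H3K4me3 or H3K27me3 -0.20. In regions up to 5 kb wide the median of enhancer-like regions was -0.02, so the sign rests on wide regions. Width was not matched: 664 of the 1487 regions were over 5 kb, against 1692 of the 11153. Over 5 kb the median was 0.22, against 0.25 for all shared regions. There 12.5% were higher, against 14.3%, and 2.86% lower, against 9.87%. Up to 2 kb the medians were -0.50 and -0.17. Regions were named within the same limits on reads and island cover. Chromosome 6, 83780801 to 83782800 (score 75.39), had 160 reads in WT CD4 and 21 in WT CD8 (log2 ratio 1.05, 0.39 to 1.78). Chromosome 17, 50609201 to 50611200 (score 408.55), had 158 in WT CD4 and 21 in WT CD8 (1.03, 0.37 to 1.76). Lowest within these limits was chromosome 8, 119420201 to 119430800 (110 reads in WT CD4 and 198 in WT CD8, -2.73, -3.08 to -2.39). Next was chromosome 13, 63318201 to 63326400 (183 in WT CD4 and 208 in WT CD8, -2.07, -2.36 to -1.77). Each of these also had WT CD8 H3K27me3 elsewhere in the region, of 205 reads on chromosome 8 and 110 on chromosome 13, and the region on chromosome 13 had H3K4me3 in DKO CD8 and WT CD8 and no H3K27ac called in DKO CD8. The 3 comparisons share libraries in pairs and are not independent of each other.

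**Figure D5:**
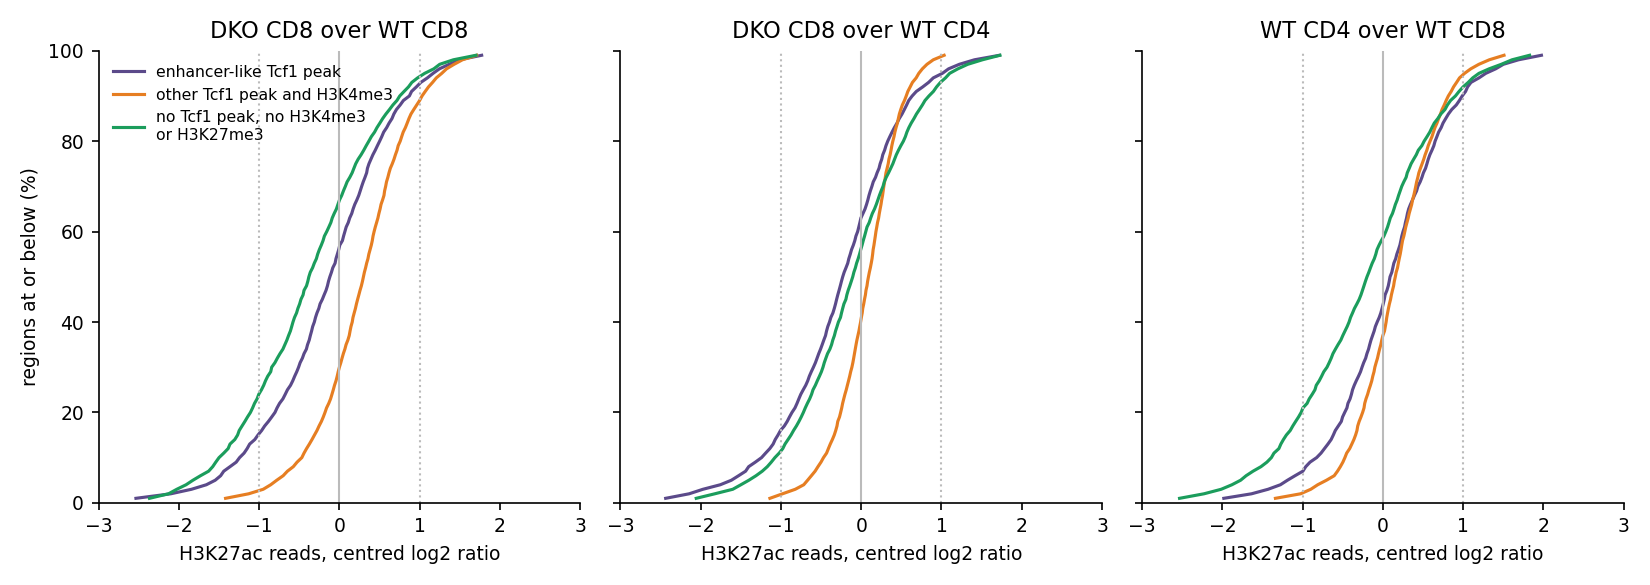
Cumulative share of regions (vertical axis, %) at or below each centred log2 ratio of H3K27ac reads (horizontal axis), for the 3 pairs of groups; dotted lines mark 2-fold. For DKO CD8 over WT CD4, regions with an enhancer-like Tcf1 peak (median -0.23) lie left of regions of other Tcf1 peaks with H3K4me3 (median 0.09) and of regions with no Tcf1 peak and neither methyl mark (median -0.11).

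H3K9ac ratios could be taken at few of these regions. Between DKO CD8 and WT CD8, 75 regions had a median of 0.06, with 4 higher and 6 lower by at least 2-fold (5.33% and 8.0%, beside 3.95% and 3.56% of all shared regions). Between WT CD4 and WT CD8, 138 regions had a median of -0.06, with 7 higher and 20 lower (5.07% and 14.5%, beside 6.17% and 11.4%). Between DKO CD8 and WT CD4, 160 regions had a median of 0.22, with 23 higher and 8 lower (14.4% and 5.0%, beside 6.07% and 3.41%). For this last pair the H3K9ac median was above 0 and the H3K27ac median below it, each relative to the typical shared region of its mark. Divided by total island reads, the H3K9ac medians were 0.65 for DKO CD8 over WT CD8 (all shared regions 0.59), -0.94 for WT CD4 over WT CD8 (all -0.89) and 1.54 for DKO CD8 over WT CD4 (all 1.33). On that scale 24% were higher and 5.33% lower for the first pair, against 23.6% and 0.498% of all. For WT CD4 over WT CD8 0.725% were higher and 45.7% lower, against 0.314% and 43.1%. For DKO CD8 over WT CD4 78.8% were higher and none lower, against 74.1% and none of all. For the same pair, stand-alone regions with a peak had an H3K9ac median of 0.47 over 72 regions, and regions with no Tcf1 peak, H3K4me3 or H3K27me3 had 0.74 over 126. Relative to the typical shared region, the members' shares of called regions rest on 4 to 23 regions each. On total island reads they rest on up to 126, and the 0.725% for WT CD4 over WT CD8 on 1.

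Within the enhancer-like peaks, those with higher scores were more often acetylated in every group. In 5 equal strata of score, lowest first, H3K27ac in all 3 groups was found at 38.7%, 40.2%, 49.2%, 49.6% and 53.8% of peaks. The share with H3K27ac in WT CD8 was 43.6% in the lowest stratum and 60.2% in the highest. DKO CD8 had 75.6% in the lowest and 78.8% in the highest, and WT CD4 91.9% and 94.9%. Median peak width was 269.5 bp in the lowest stratum and 551 bp in the highest. Overlap was counted from 1 bp, and the part of peak width in these shares was not tested. H3K9ac moved less, and its lowest and highest strata had 6.54% and 6.55% for DKO CD8, 20.7% and 23.9% for WT CD4, and 6.01% and 4.78% for WT CD8. The median H3K27ac log2 ratio of DKO CD8 over WT CD4 was -0.21, -0.25, -0.17, -0.27 and -0.34 from the lowest to the highest stratum. That of DKO CD8 over WT CD8 was -0.03, -0.13, -0.05, -0.14 and -0.27. Across single peaks the relation was weak (Spearman's rho -0.05 over 2256 peaks and -0.07 over 1607).

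Enhancer-like peaks lay a median of 8259 bp from the nearest H3K4me3 island of any group (quartiles 3008 and 17501 bp). This gap was under 1 kb for 309 peaks (10.9%), over 10 kb for 1245 (44.1%) and over 50 kb for 116 (4.10%). Peaks close to H3K4me3 carried more H3K9ac. Under 1 kb it was called at 19.7% of peaks in DKO CD8, 42.4% in WT CD4 and 14.2% in WT CD8. From 10 to 50 kb it was called at 5.14% in DKO CD8, 18.3% in WT CD4 and 3.45% in WT CD8. H3K27ac in DKO CD8 was less frequent with distance, at 84.8% under 1 kb, 80.9% from 1 to 5 kb, 77.2% from 5 to 10 kb, 75.9% from 10 to 50 kb and 67.2% from 50 kb on. In WT CD4 these shares stayed between 91.4% and 96.8%, and in WT CD8 they were 59.5% under 1 kb and 46.6% from 50 kb on.

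At the edge of the rule, 123 enhancer-like peaks lay within 200 bp of an H3K4me3 island. Their median score was 76.0, and 22.8% in DKO CD8, 49.6% in WT CD4 and 16.3% in WT CD8 had H3K9ac. Just outside it, 48 peaks overlapped H3K4me3 by up to 50 bp, with a median score of 69.5 and H3K9ac at 41.7% in DKO CD8, 66.7% in WT CD4 and 41.7% in WT CD8. The highest-scoring peak just inside was chromosome 6, 70774614 to 70775390 (score 341.94), and just outside chromosome 18, 32702751 to 32703248 (score 448.03). On the H3K27ac side, 6 enhancer-like peaks had under 10% of their length in an island, and 53 peaks with none of the 3 marks lay within 200 bp of one, with a median score of 62.1.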

How the data were processed

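ChIP-seq of 12 histone libraries and 1 Tcf1 peak list were analysed. Per the submitters' processing notes the tools were Bowtie2 2.2.5 and, without stated roles, FastQC, MACS 1.4.2 and SICER 1.1, on mm9. The deposited island lists give the authors' raw read count per island, with at least 9 reads, on a 200 bp grid. Each Tcf1 peak has the authors' deposited score, which served only to rank and describe peaks. The 3 inputs and the Tcf1-deficient library were not analysed on their own. Groups follow the sample titles.

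Peaks and islands were compared by overlap of at least 1 bp. Overlapping H3K27ac islands of all groups were joined into regions (for a ratio, those of the pair compared), whose island reads were summed. For ratios, the median log2 ratio of regions with islands of both libraries was subtracted. Depth is known only as reads within islands. Scripts ran under Python 3.11.15 with SciPy 1.17.1, pandas 2.3.3, matplotlib 3.10.9 and numpy 2.4.6. Overlaps, gaps and merging were checked against bedtools. The log2 ratio and its centring on the median were tried on simulated counts with known answers, without merging islands or summing reads. With 1 library per mark and group no test was possible. Intervals are 95%.

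Named members, by rule, were the 5 highest scores and the top score of each combination of groups. Also named were the top score with H3K9ac in all 3 groups and those just inside and outside the overlap limit. Named regions were the 3 with the most peaks and, per H3K27ac pair, the 2 furthest in each direction. The members and the rule were chosen with earlier results of these data known. Alternatives covered the overlap, a score of at least 100, stronger islands, a 1 kb distance from H3K4me3, the scale, at least 50 reads, and read density. A genome and gene annotation of mm9 were not used here, so the planned sequences, motif search and nearest genes were not run.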

Additional observations from a re-analysis of the deposited data

How the results depend on the processing

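Of 71 values recomputed under alternatives, 37 stayed within the 95% interval of the reported value (counts within 1.5 times), 30 moved beyond it and 4 changed sign. With overlap counted from 50% of the peak, H3K27ac in all 3 groups was at 40.5% of enhancer-like peaks, the median gap to H3K4me3 was 6773.5 bp and the median log2 ratio of DKO CD8 over WT CD8 was -0.0619. With scores of at least 100 there were 1097 enhancer-like peaks with a median score of 151, 51.3% with H3K27ac in all 3 groups, 4.10% with H3K9ac in WT CD8, 2 regions with 3 or more peaks, and medians of -0.19 for DKO CD8 over WT CD8 and -0.30 for DKO CD8 over WT CD4. Without the islands at or below the median reads of each list the values were 42.4% with H3K27ac in all 3 groups, 4.13% with H3K9ac in WT CD8, a gap of 15509 bp and 0.0555 for WT CD4 over WT CD8. Leaving out peaks within 1 kb of H3K4me3 gave H3K9ac at 5.16% in DKO CD8, 19.8% in WT CD4 and 3.93% in WT CD8.

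The ratios depended most on the scale and the region. On total island reads the medians were 1.39 for DKO CD8 over WT CD8, which changed sign, 1.68 for WT CD4 over WT CD8 and -0.27 for DKO CD8 over WT CD4. With at least 50 reads the first was -0.0530 and WT CD4 over WT CD8 was 0.13. By read density at the peak, WT CD4 over WT CD8 was 0.0308 and DKO CD8 over WT CD4 -0.16. The next 4 alternatives were chosen after seeing the data. Regions over 5 kb gave 0.0819 for DKO CD8 over WT CD8, a change of sign, 0.22 for WT CD4 over WT CD8 and -0.27 for DKO CD8 over WT CD4. Regions up to 5 kb gave -0.24, -0.0247 (a change of sign) and -0.17 for these pairs. Islands over at least 50% of the region in both libraries gave -0.36, -0.23 (a change of sign) and -0.12. With the WT CD8 histone libraries left out of the rule the gap was 7701.5 bp. The median of DKO CD8 over WT CD4 was below 0 under every alternative run, all on the same libraries. The median of all shared regions of this pair moved too. It was -0.17 over 5 kb, -0.04 on total island reads, and 0.05 with islands over at least 50% of the region. The cause of the changes of sign was not tested.

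No paired analysis was possible because each mark had 1 library per group. Island reads limit the precision, and a missing island is not an absence of the mark.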
